A study of Brassica napus with 12 samples.

Results

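The starts of chromosomes A02 and C02 of Brassica napus (oilseed rape) were followed across 12 leaf libraries, in 3 of which expression had moved from the C02 stretch to the A02 stretch. Members were chosen by gene number in the identifier: 468 genes of A02, BnaA02g00030D to BnaA02g04710D, and 869 genes of C02, BnaC02g00040D to BnaC02g08730D, without the copy of the flowering repressor FLC in each stretch, so 1337 of the 101040 coding sequences counted. The ends of both stretches had been set on the levels of these genes in these libraries, so the shift itself is described here without a test.

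The libraries came from seedlings aged 16 days, of which the first true leaf was taken, of the cultivars Zhongshuang 9 and Avatar. For each cultivar, 3 libraries came from plants held fully under tap water for 24 h and 3 from plants kept in air in similar boxes without water, all in short days. The replicates of each group are 1, 3 and 4. The sources used here leave out whether plants were pooled or sown separately, so p-values measure only the spread between these libraries. Libraries held 24389813 to 35873196 estimated counts. As background, oilseed rape is an allotetraploid that carries an A subgenome from a relative of turnip and a C subgenome from a relative of cabbage, and much of A02 is collinear with C02. Such homoeologous chromosomes can pair with each other at meiosis, and an exchange then replaces a stretch of 1 chromosome by the matching stretch of the other, which changes how many copies of each version a plant carries. No DNA was measured in these samples, so copy number itself was not tested.

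Each library was read as the share of A02 in the summed TPM of both starts, where TPM is an abundance per coding length with a fixed total per library. In Zhongshuang 9 under submergence the A02 start held 94.3% in replicate 1, 34.4% in replicate 3 and 35.2% in replicate 4. In Zhongshuang 9 in air it held 33.0%, 32.5% and 33.2% in replicates 1, 3 and 4. In Avatar under submergence it held 55.5%, 34.8% and 33.7%, and in Avatar in air 32.6%, 90.9% and 36.8%, again in the order of replicates 1, 3 and 4. Replicate 1 of submerged Zhongshuang 9, replicate 1 of submerged Avatar and replicate 3 of Avatar in air therefore stood apart, and the other 9 libraries lay between 32.5% and 36.8%. Zhongshuang 9 submergence 1 also stood apart beyond these stretches: of 3071 genes on the other A chromosomes that were lower in Zhongshuang 9 than in Avatar in air, 350 were over 4-fold higher in it than in replicates 3 and 4, against 172 of 16160 not called between cultivars. These 3 libraries were left out of every test of a treatment or of the cultivars.

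**Figure D1:**
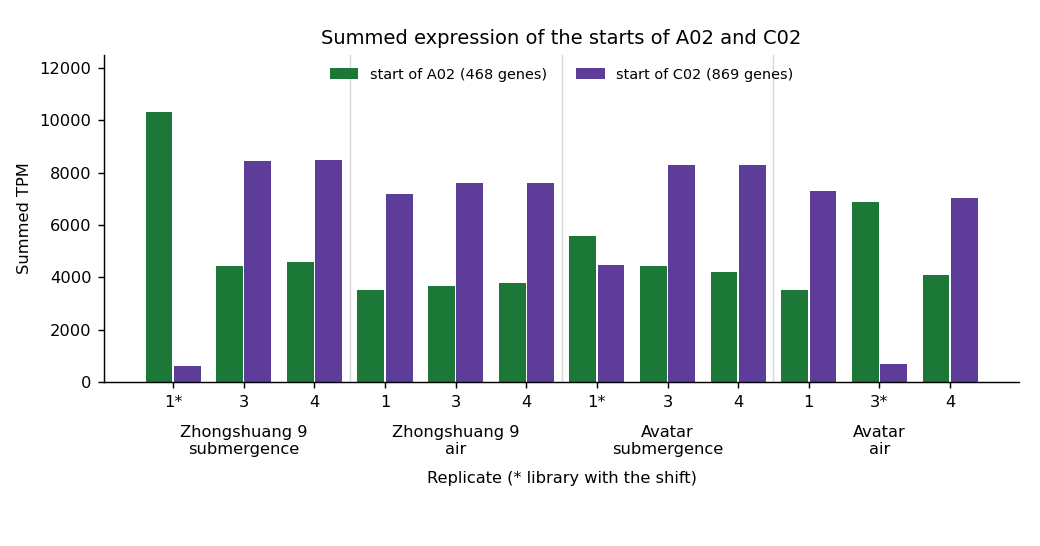
Summed TPM of the start of A02 (green) and of C02 (purple) in each of the 12 libraries, with the replicate number under each pair of bars and an asterisk at the libraries with the shift. C02 was the higher bar in 9 libraries, near 0 in Zhongshuang 9 submergence 1 and Avatar air 3, and below A02 in Avatar submergence 1.

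Levels were then set against the libraries of the same cultivar and treatment without the shift, gene by gene, for members with at least 1 CPM (counts relative to the library total, scaled by TMM factors) in those libraries. In Zhongshuang 9 submergence 1 the C02 start had a median of 0.372% of the level in replicates 3 and 4, over 356 genes, and the A02 start a median of 198% over 211 genes. In Avatar air 3 the medians were 0% for C02 over 351 genes and 182% for A02 over 240 genes. Avatar submergence 1 lay between these and the unshifted libraries, with 52.9% for C02 over 365 genes and 140% for A02 over 229 genes. The rest of A02 lay at medians of 93.6%, 98.4% and 102%, and the rest of C02 at 97.2%, 98.1% and 97.5%, in Zhongshuang 9 submergence 1, Avatar air 3 and Avatar submergence 1, in this order. The shift was therefore a near loss of C02 transcripts with about a doubling of A02 in 2 libraries, and a partial version of both in the third. Whether Avatar submergence 1 holds a plant with an intermediate state or a mixture of plants cannot be told apart in these data. In bulk leaf RNA, fewer cells of a type and less RNA per cell cannot be told apart either.

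The C02 stretch did not fall completely silent in every gene. In Zhongshuang 9 submergence 1, 583 of 869 C02 members had no count and the rest held 20699 estimated counts, and in Avatar air 3, 645 had none and the rest held 21959. A few genes held most of these counts. BnaC02g07040D and BnaC02g04950D together held 40.8% of what was left in Zhongshuang 9 submergence 1, and BnaC02g05070D and BnaC02g07040D held 56.2% in Avatar air 3. BnaC02g05070D had 4.71 CPM in Zhongshuang 9 submergence 1 against 42.9 and 59.99 CPM in replicates 3 and 4, but 244 CPM in Avatar air 3 against 203 and 293 CPM in replicates 1 and 4, so it was far below its group in 1 of these libraries only. BnaC02g04950D was lost in neither, with 46.3 CPM in Zhongshuang 9 submergence 1 against 51.2 and 52.1 CPM, and 25.7 CPM in Avatar air 3 against 27.4 and 30.4 CPM. BnaC02g07040D kept 166 CPM against 639 and 604 CPM in the first library and 227 CPM against 1443 and 1576 CPM in the second. Of the C02 members above 0 in these 2 libraries, 64.0% and 66.5% had counts that were not whole, against 55.7% in Zhongshuang 9 submergence 3 and 55.0% in Avatar air 1. Such counts arise where reads are divided between similar targets, so part of what was left may have been assigned from other copies, which was not tested.

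The shift reached past the last C02 member. The 10 last members with at least 1 CPM had a median of 0.629% in Zhongshuang 9 submergence 1 and 0.145% in Avatar air 3, and the 10 first genes outside had 2.2% and 0.7%. Genes BnaC02g09020D to BnaC02g09310D still lay at 1.02% and 0% in these libraries and at 46.8% in Avatar submergence 1, while BnaC02g09320D to BnaC02g09800D lay at 97.2%, 101% and 112.5%. On A02 the end of the stretch lay close to the end of the shift. Its 10 last members had medians of 141%, 167% and 117% in Zhongshuang 9 submergence 1, Avatar air 3 and Avatar submergence 1, and the 10 first genes outside had 84.2%, 86.5% and 110%.

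**Figure D2:**
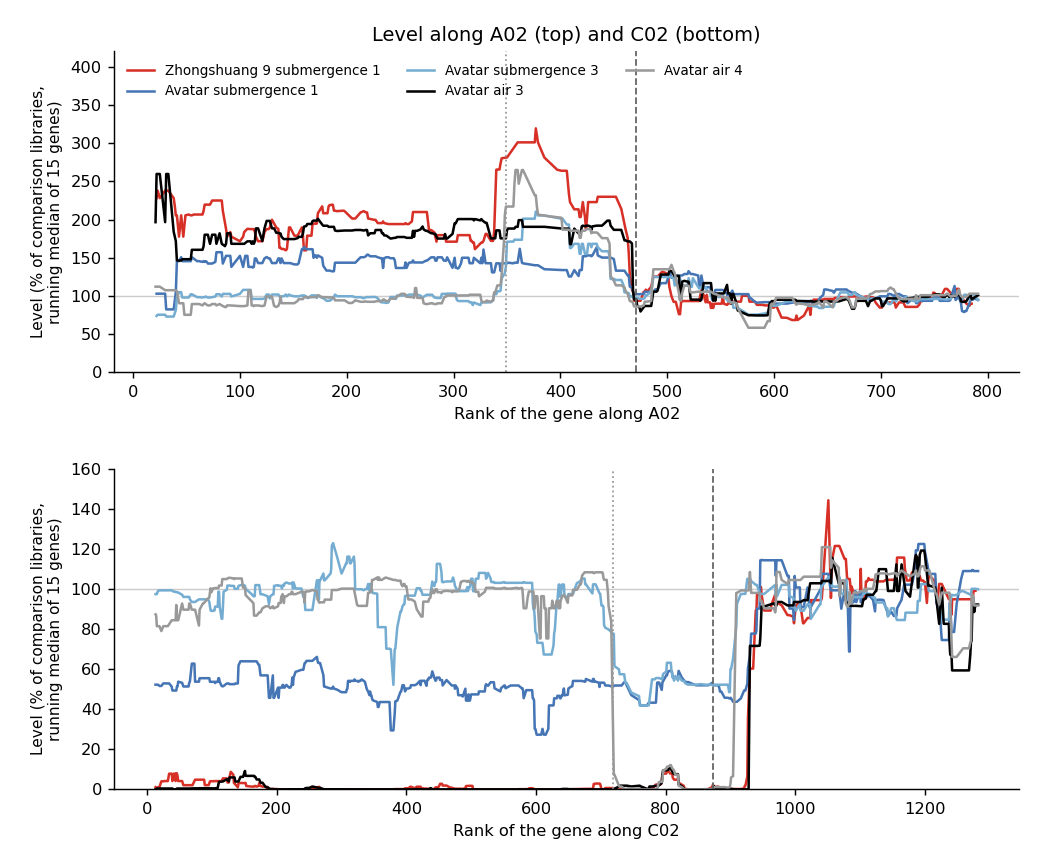
Running median over 15 genes of the level in 5 libraries along A02 (top) and C02 (bottom), by gene rank, as a percentage of Zhongshuang 9 submergence 3 and 4, Avatar submergence 4 or Avatar air 1. The dashed line is the last member, and the dotted line the start of an inner stretch in which Avatar air 4 (grey) and Avatar submergence 3 (light blue) leave 100% as well.

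A second, shorter shift lay inside the stretches and divided the remaining Avatar libraries. It was found after the values were seen, and its bounds were read from them: BnaA02g03500D to BnaA02g04470D (98 genes) and BnaC02g07200D to the last C02 member (154 genes). In Avatar air 4 the C02 inner members had a median of 1.55% of Avatar air 1 over 52 genes, and the A02 inner members 204% over 40 genes. In Avatar submergence 3 the same sets lay at 54.4% over 51 genes and 171% over 39 genes of Avatar submergence 4. Before the inner stretch these libraries did not depart: C02 lay at 98.2% and 98.6%, and A02 at 96.5% and 97.5%. On C02 it ended near BnaC02g09010D, since BnaC02g08740D to BnaC02g09010D lay at 0.633% and 48.5% and BnaC02g09020D to BnaC02g09310D at 116% and 105% in Avatar air 4 and Avatar submergence 3. It thus ended short of the larger shift.

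Set against Zhongshuang 9 of the same treatment, the 6 Avatar libraries fell into 3 levels on inner C02. The median over 54 to 60 genes was 84.0% in Avatar submergence 4 and 83.9% in Avatar air 1, 46.2% in Avatar submergence 1 and 45.8% in Avatar submergence 3, and 0.744% in Avatar air 3 and 0.0939% in Avatar air 4. Inner A02 ran in the opposite order, at 90.4% and 107% in the libraries with full C02, 137% and 141% in those with intermediate C02, and 209% and 195% in those with almost none. Each level was held by 1 pair of Avatar libraries. Both intermediate libraries were submerged and both with almost none were in air, and the full level was held by 1 library of each treatment. Each set against the other unshifted libraries of its own group, the 5 unshifted Zhongshuang 9 libraries lay between 94.8% and 102.7% for inner C02. Of 9 libraries used in the tests below, Avatar air 4 and Avatar submergence 3 are thus altered over these members, and results are given for them apart.

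**Figure D3:**
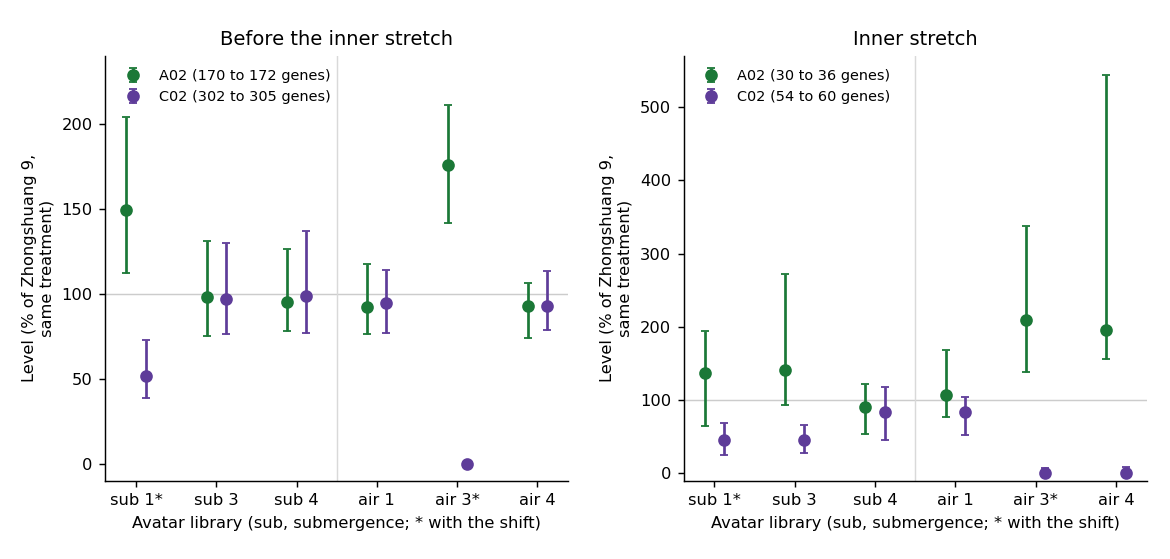
Median level with quartiles of A02 (green) and C02 (purple) members in the 6 Avatar libraries, as a percentage of the unshifted Zhongshuang 9 libraries of the same treatment, before the inner stretch (left) and within it (right). Before the inner stretch only the libraries with an asterisk leave 100%; within it, C02 falls into 3 levels with 2 libraries at each.

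Candidate A and C pairs were drawn from equal coding lengths in matching gene order. The choice of members did not use coding length, but it did use gene number. By the rule of 1 chain of lengths found once on each side, 24 pairs came out of 91 matches, with a Spearman correlation of levels of 0.36. Chains that allow gaps and either direction, added after seeing this, gave 160 pairs with a C02 member, in 4 chains of 17 to 70 pairs. The longest chain not kept had 11. Without the pair of BnaA02g00020D, an A02 gene outside the members, 159 pairs were used. C02 members 50 to 810 matched A02 genes 730 to 20 in reversed order (28 pairs), and C02 members 4270 to 7900 matched A02 members 1140 to 3970 in the same order (70 pairs). Between them, C02 members 880 to 3130 matched 62 A genes of no placed chromosome, 17 in the same order and 45 reversed. Mean TPM of the A and C gene over the 9 libraries without the shift correlated with rho = 0.88 over these 159 pairs. This is a correlation across genes that share libraries and length, and no p is given.

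The unplaced A genes moved with the A02 start although the choice of members did not include them. Those that were paired and had at least 1 CPM lay at a median of 213% in Zhongshuang 9 submergence 1 (27 genes), 191% in Avatar air 3 (30 genes) and 154% in Avatar submergence 1 (28 genes). Across all unplaced A genes, raised meant above 160% in the first 2 of these libraries and above 125% in the third. By that measure 29 of 67 genes in BnaAnng00250D to BnaAnng01990D and 14 of 17 in BnaAnng06000D to BnaAnng06430D were raised in all 3. The chains have other bounds, BnaAnng00610D to BnaAnng01990D and BnaAnng05640D to BnaAnng06430D, and of the paired unplaced A genes 11 of 23 were raised. So were 83 of 195 A02 members and 12 of the 1154 other unplaced A genes. Among genes on the placed chromosomes outside the starts or of no assigned subgenome, 56 of 30829 were raised. A loss in all 3 libraries, below 10%, 10% and 80%, was found in 225 of 306 C02 members, 14 of 2170 unplaced C genes and 32 of those 30829 genes, and 24 of these 32 lie on C02 past the stretch. A gene table of the Da-Ae assembly from RefSeq placed 9 of the 11 matched identifiers of the first of these unplaced groups on C2 and 1 on A2. The same table placed 5 of 15 matched C02 members on A2 and 3 of 14 matched A02 members on C2. It matched 29 of the 1337 members and gave a symbol to none, so roles of the genes are not described.

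Pairs with at least 2 TPM and the C02 gene before the inner stretch numbered 83. In these, the A gene's share had a median of 100% in both Zhongshuang 9 submergence 1 and Avatar air 3. It was at least 95% in 70 and 66 of them. In Avatar submergence 1 the median was 73.6%. In the 9 other libraries the median lay between 45.1% and 53.3%, and at most 3 pairs reached 95%. A copies in these pairs rose to medians of 212%, 203% and 166% of the unshifted level in Zhongshuang 9 submergence 1, Avatar air 3 and Avatar submergence 1. These values describe the pairs and were not tested, because the choice of members used them.

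**Figure D4:**
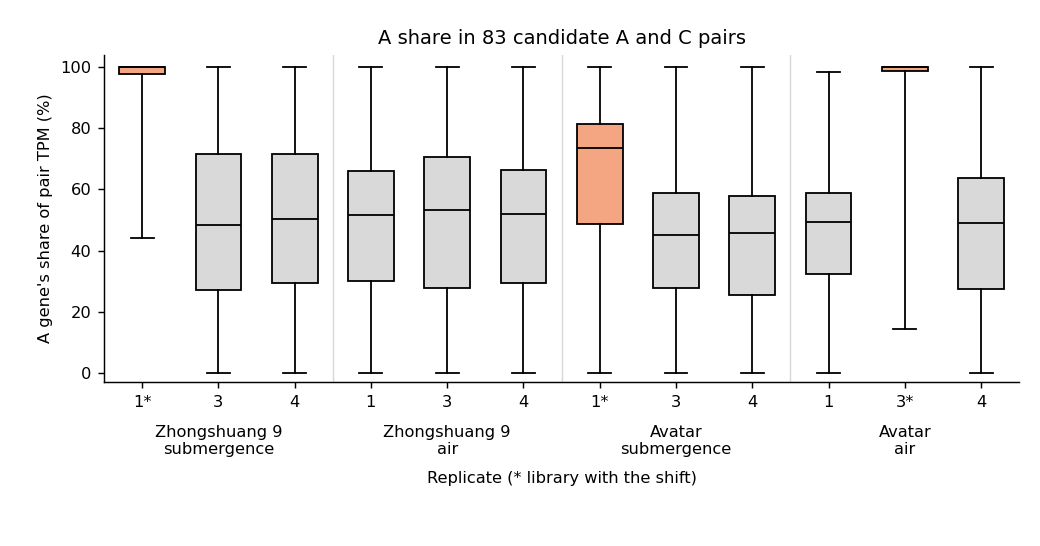
Share of the A gene in the TPM of 83 candidate A and C pairs by library (line, median; box, quartiles; whiskers, lowest and highest), with the libraries with the shift in orange. The median lies near 100% in Zhongshuang 9 submergence 1 and Avatar air 3, at 73.6% in Avatar submergence 1 and between 45.1% and 53.3% elsewhere.

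The pair of BnaA02g02290D, the A02 member of highest TPM, shows the shift gene by gene. BnaA02g02290D had 2830 TPM in Zhongshuang 9 submergence 1 against 1100 and 1212 TPM in replicates 3 and 4, and its partner BnaC02g05730D had 1.1 TPM against 1219 and 1202 TPM. In Avatar air 3 the A gene had 1689 TPM against 916 and 845 TPM in replicates 1 and 4, and the C gene 0.704 TPM against 443 and 371 TPM. In Avatar submergence 1 the A gene had 560 TPM against 711 and 851 TPM in replicates 3 and 4, and the C gene 288 TPM against 727 and 815 TPM. Here the A gene was not above the other libraries of its group in Avatar submergence 1. For BnaA02g00540D it was, with 386 TPM against 240 and 216 TPM, and it had 1159 TPM against 521 and 545 TPM in Zhongshuang 9 submergence 1.

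The summed level of a pair was below or above that of the unshifted libraries according to the share its A gene held there. In Zhongshuang 9 submergence 1 the pair sum had a median of 57.9% of the unshifted level in 34 pairs with A under 40%, 123% in 16 pairs with A at 40% to 60%, and 153% in 33 pairs with A over 60%. In Avatar air 3 these were 57.4%, 111% and 131%, over 32, 30 and 21 pairs, and in Avatar submergence 1 they were 80.8%, 112% and 132%, over 34, 31 and 18 pairs. The order follows from a doubling of 1 copy and the loss of the other, and the share was taken from the same comparison libraries, so it is no test. Over all members of both starts, summed TPM fell to 84.5%, 69.0% and 80.0% of the unshifted level in Zhongshuang 9 submergence 1, Avatar air 3 and Avatar submergence 1. The sums were 10945 TPM against 12848 and 13056, 7568 TPM against 10817 and 11122, and 10076 TPM against 12712 and 12476. Unplaced A partners are no members. With the 62 paired unplaced A genes added, the sums were 11983 TPM against 13282 and 13505, 8421 TPM against 11191 and 11524, and 10768 TPM against 13126 and 12868.

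The gain of A02 is given by the response of the genes in the other cultivar. In Zhongshuang 9 submergence 1, A02 members before the inner stretch that rose in Avatar under submergence had a median of 183% (39 genes), those that fell 192% (32 genes) and those not called 202% (99 genes). In Avatar air 3, with genes classed by the response of Zhongshuang 9, the medians were 183%, 196% and 184%, over 44, 52 and 87 genes. The fold changes behind the classes come from libraries other than the ratio's, but the fit that called them shares 1 estimate of spread with the comparison libraries. No test was made between the classes.

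On the inner A02 stretch, Zhongshuang 9 submergence 1 also differed from its cultivar in which genes were on. Its 39 genes with at least 1 CPM in Avatar submergence 4 lay at a median of 212% of that library. The quartiles were 172% and 365%, whereas replicates 3 and 4 lay at medians of 74.8% and 78.5%. The 175 such A02 members before the inner stretch lay at a median of 191.9% in Zhongshuang 9 submergence 1, with quartiles of 115% and 265.7%. A median of about this height was thus not particular to the inner stretch. In 3 inner A02 members the mean of the unshifted Zhongshuang 9 libraries was under 10% of Avatar (at least 2 CPM in Avatar air 1 and submergence 4), a rule chosen after seeing the values. BnaA02g04470D had 34.5 CPM in Zhongshuang 9 submergence 1 against 0.649 and 0.594 CPM in replicates 3 and 4, and 29.3, 28.5 and 16.7 CPM in submerged Avatar. BnaA02g04300D had 16.0 CPM against 0.353 and 0.226 CPM, and 10.6, 12.2 and 6.47 CPM in submerged Avatar. BnaA02g04100D had 10.3 CPM against 0 and 0 CPM, and 5.13, 5.25 and 5.90 CPM in submerged Avatar. All 3 thus stood at 175% to 248% of Avatar submergence 4 in this library. The 4 such genes before the inner stretch stood at 0% to 81.8%. The 44 on the rest of A02 stood at 0% to 173% (median 5.79%). The 366 on other A chromosomes stood at 0% to 1909% (median 6.15%). How this library came to differ was not tested.

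The submergence response of the members was tested on the 9 libraries without the shift, with edgeR's quasi-likelihood test over all 55987 genes that passed a filter on low counts, among them 800 members. In Zhongshuang 9, 176 members rose and 182 fell at an adjusted p under 0.05, in all 44.8% of those tested, against 48.3% of all genes (25.1% up and 23.2% down). In Avatar, 129 rose and 152 fell, or 35.1%, against 40.1% of all genes (19.3% up and 20.8% down). The median log2 fold change of the members was -0.03 in Zhongshuang 9 and 0.03 in Avatar, against 0.03 and 0.01 over all genes. Both cultivars called 95 members up and 121 down, and no member in opposite directions. That is 11.9% up and 15.1% down, against 15.4% and 15.9% of all genes, of which 215 of 55987 were called in opposite directions. With library totals in place of TMM factors, which moved the median of all genes by more than 0.1, the split was 227 up and 145 down in Zhongshuang 9 and 245 up and 89 down in Avatar. Fitted on all 12 libraries, 145 and 81 members were called. Shares of all genes in these alternative fits are not given here, so their counts cannot be read as particular to the members. In the main fit the share called over both stretches was somewhat below that of all genes in both cultivars, which was not tested.

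The share called differed along the stretches. Before the inner stretch, 112 of 226 A02 members and 216 of 419 C02 members were called in Zhongshuang 9 (49.6% and 51.6%), and 86 and 172 in Avatar (38.1% and 41.1%). Within it, 17 of 58 A02 members and 9 of 80 C02 members were called in Zhongshuang 9 (29.3% and 11.25%), and 10 and 6 in Avatar (17.2% and 7.5%). Of 17 A02 members after it, 4 were called in Zhongshuang 9 (23.5%) and 7 in Avatar (41.2%). The fit shares 1 estimate of spread among its 9 libraries, and 2 of the 4 Avatar libraries are altered over these genes. The fit of the 5 Zhongshuang 9 libraries alone was added after seeing this. In it, 44 of 75 inner C02 members (58.7%) and 26 of 48 inner A02 members (54.2%) were called, against 57.3% of all genes. In Avatar the inner medians were 0.54 on C02 and -0.51 on A02 (log2), although both lay near 0 before the inner stretch, at 0.03 and 0.02. Inner C02 was nearly absent in 1 of the 2 unshifted Avatar air libraries and intermediate in 1 of the 2 submerged ones, and the part of this in the medians was not tested.

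Of members called in both cultivars with at least 5 CPM in the higher groups, those with the largest average change are named. BnaC02g00040D, the first member on C02, rose. It had 38.8 and 35.0 CPM in submerged Zhongshuang 9 against 2.59, 1.42 and 3.13 CPM in air, and 24.3 and 25.2 CPM in submerged Avatar against 1.65 and 1.69 CPM in air. No submerged library overlapped with an air library, and the log2 fold changes were 4.01 ± 0.26 (SE) and 3.82 ± 0.31, with edgeR adjusted p of 7.9e-06 and 4.8e-05. With all 12 libraries the Zhongshuang 9 value was 3.37 and missed the threshold (edgeR adjusted p = 0.080), the library with the shift being at 0 CPM. The inner member BnaC02g08080D had 139 and 140.1 CPM against 14.002, 4.58 and 4.63 CPM in Zhongshuang 9 (4.22 ± 0.65). In Avatar it had 25.9 and 25.3 CPM against 4.83 and 0.778 CPM (3.14 ± 0.77), the last of these from the air library with almost no inner C02.

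BnaA02g01000D fell in both cultivars. It had 8.07 and 7.31 CPM in submerged Zhongshuang 9 against 219, 311 and 272 CPM in air, and 12.9 and 16.7 CPM in submerged Avatar against 237 and 280 CPM in air. The groups did not overlap, with log2 fold changes of -5.06 ± 0.21 and -4.19 ± 0.21 and edgeR adjusted p of 1.3e-06 and 6.4e-06. The libraries with the shift had 14.4 CPM in submerged Zhongshuang 9 and 20.7 CPM in submerged Avatar, and 487 CPM in Avatar in air, each above the other libraries of its group. BnaC02g03490D fell by 4.27 ± 0.69 in Zhongshuang 9 and by 5.41 ± 0.80 in Avatar on the log2 scale, with 5.1 and 5.22 CPM against 92.8, 102 and 116 CPM, and 0.751 and 0.669 CPM against 7.66 and 49.6 CPM. Without Avatar air replicate 4 the Avatar value was -3.45, so the order of the cultivars rests on that library. It was another C02 member not lost in Avatar air 3, at 83.7 CPM, or in Zhongshuang 9 submergence 1, at 14.2 CPM.

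The responses of A and C copies were set side by side within pairs. Tested pairs with the C02 gene before the inner stretch numbered 92. Among them, BnaA02g03500D, paired with BnaC02g07110D, is itself the first gene of the inner A02 stretch. Both copies rose in 19 and both fell in 18 in Zhongshuang 9, and 2 pairs were called in opposite directions. In Avatar both rose in 9, both fell in 9, and 2 were opposite. Neither copy was called in 26 pairs in Zhongshuang 9 and 39 in Avatar. A call in the A copy only was made in 11 pairs and in the C copy only in 16 in Zhongshuang 9, and in 14 and 19 in Avatar; whether these copies differ from each other was not tested. Log2 fold changes of the copies correlated with r = 0.68 in Zhongshuang 9 and r = 0.60 in Avatar (rho = 0.68 and 0.64), which is a description across pairs that share libraries. Similar copies can also exchange reads in the counting, and its part in this was not tested. The median absolute difference between copies was 0.40 and 0.44 on the log2 scale. Pairs with an unplaced A gene had r = 0.65 and 0.62 over 40 pairs, against 0.69 and 0.67 in 52 pairs with an A02 member.

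**Figure D5:**
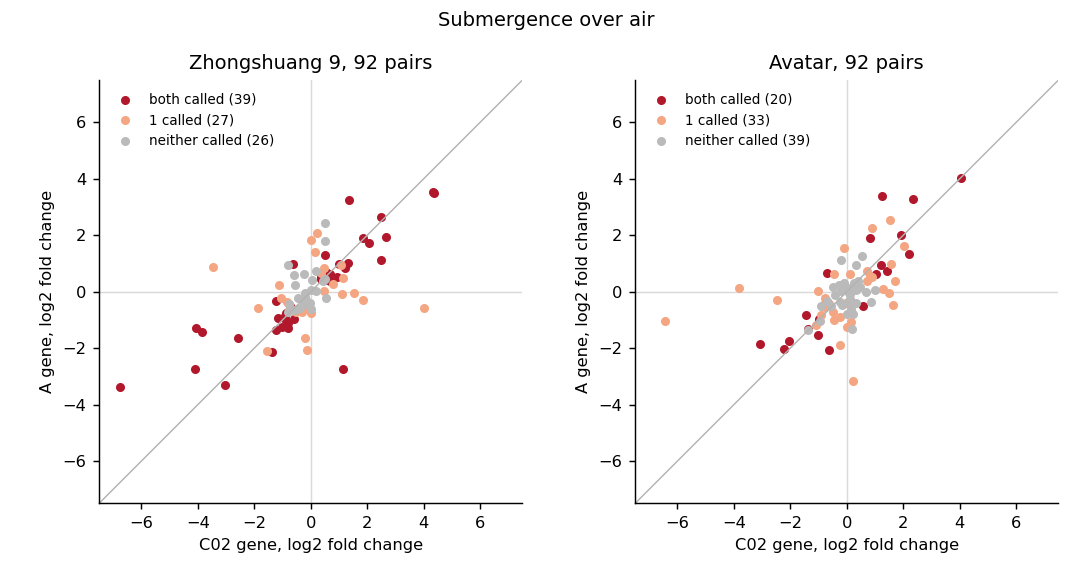
Log2 fold change of submergence over air in the A gene against the C02 gene of 92 candidate pairs, in Zhongshuang 9 (left) and Avatar (right), coloured by how many of the copies passed an adjusted p of 0.05. Both copies were called in 39 pairs of Zhongshuang 9 and 20 of Avatar, of which 2 in each lie in opposite quadrants.

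The share of A02 in the 9 remaining libraries is given without a test, because the libraries left out and the bounds of the stretches were chosen on these levels. It was 34.5% ± 0.63 (SD, n = 4) under submergence and 33.6% ± 1.79 (n = 5) in air, a difference of 0.906 percentage points. In Zhongshuang 9 it was 33.7% ± 1.09 (n = 5), against 34.5% ± 1.79 (n = 4) in Avatar, a difference of -0.795 points. Without the members from the inner stretch on, an alternative added after seeing the data, the share was 32.6% ± 1.02 in Zhongshuang 9 and 30.4% ± 0.88 in Avatar, a difference of 2.2 points. Without the 10 members of highest TPM it was 36.6% ± 1.57 in Zhongshuang 9 and 44.1% ± 3.18 in Avatar, a difference of -7.47 points, and without both sets of members the difference was -2.86 points. The direction of the cultivar difference in A share thus changed with the members summed.

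Between cultivars, Zhongshuang 9 against Avatar, 75 members were higher and 114 lower in air (23.6% of those tested, against 22.7% of all genes, 8.46% higher and 14.3% lower). Under submergence 98 were higher and 142 lower (30.0%, against 30.5% of all genes, 14.2% higher and 16.3% lower). The second count was 129 or 132 without Zhongshuang 9 submergence replicate 3 or 4. In both treatments 41 were higher and 86 lower, and 3 changed sign. These are 5.13% and 10.75% of the members, against 5.35% and 10.5% of all genes, of which 175 of 55987 changed sign. Inner A02 members were lower in Zhongshuang 9 in 23 of 58 and higher in 3 in air, with a median of -1.40 (log2), and inner C02 members were higher in 15 of 80 and lower in 1, with a median of 1.18. Under submergence the inner medians were -0.86 on A02 and 0.50 on C02. The part of the altered Avatar libraries in these medians was not tested. Before the inner stretch the medians were 0.05 on A02 and 0.00 on C02, with 25 higher and 31 lower of 226 A02 members and 30 higher and 54 lower of 419 C02 members.

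BnaC02g01440D was lower in Zhongshuang 9. It had 0 and 0 CPM in submerged Zhongshuang 9 against 15.1 and 15.5 CPM in submerged Avatar, and against a floor of 3 counts per library it was at least 150-fold higher in Avatar. In air it had 0.113, 0.0309 and 0.196 CPM in Zhongshuang 9 against 49.4 and 39.9 CPM in Avatar, a log2 difference of -8.65 ± 0.33 with an edgeR adjusted p of 2.9e-06. BnaA02g04300D was lower in Zhongshuang 9 in air (0.467, 0.476 and 0.709 CPM, against 21.9 and 44.4 CPM in Avatar; -5.97 ± 0.42) and under submergence (-4.95 ± 0.53), but with all 12 libraries the second value was -0.80 (edgeR adjusted p = 0.645), and the library with the shift had 16.0 CPM. The members highest in Zhongshuang 9 over Avatar were BnaC02g07370D and BnaC02g08550D, both from the inner stretch. BnaC02g07370D had 4.82, 5.19 and 5.02 CPM in Zhongshuang 9 in air against 0.23 and 0.0754 CPM in Avatar in air (5.04 ± 0.42), and 6.3 and 4.93 CPM against 0.123 and 0.271 CPM under submergence (4.91 ± 0.40). BnaC02g08550D had 7.6 and 7.94 CPM in submerged Zhongshuang 9 and at most 0.185 CPM in any Avatar library. Among the Avatar libraries, air 1 and submergence 4, with inner C02 at a full level, had the highest values of BnaC02g07370D, 0.23 and 0.271 CPM. The others had 0 to 0.17 CPM. These are few counts, 6.13 and 10.3 against 7.25 in Avatar submergence 1. For BnaC02g08550D, Avatar submergence 4 was highest at 0.185 CPM, but Avatar air 1 had 0.0387 CPM, below the 0.047 CPM of Avatar submergence 1.

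The responses of the cultivars differed past the threshold in 14 members, 5 with a higher and 9 with a lower log2 fold change in Zhongshuang 9 than in Avatar. That is 1.75% of the 800 tested, against 2.22% of all genes (1.16% higher and 1.06% lower). The 14 were 4 of 226 A02 and 9 of 419 C02 members before the inner stretch, none of 138 within it and 1 of the 17 after it on A02. The count ranged from 0 to 74 when single libraries were left out: it was 74 without Avatar air replicate 1, 9 without Avatar submergence replicate 3, 2 without Zhongshuang 9 air replicate 3 or 4, 1 without Zhongshuang 9 submergence replicate 3 and 0 without Zhongshuang 9 submergence replicate 4. With library totals the split was 2 higher and 16 lower. Shares of all genes in these alternatives are not given here.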

How the data were processed

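Leaf RNA of 12 libraries was quantified per coding sequence. The deposited tables hold estimated counts and TPM per sequence, per the file headers; kallisto, edgeR and limma are named without versions, per the submitters' processing notes. No source used here gives the genome build or the strand setting. The authors' estimated counts were rounded, low genes were removed with filterByExpr, and edgeR's quasi-likelihood test with TMM factors and Benjamini-Hochberg adjustment was fitted to the 9 libraries without the shift and all 55987 genes, with 5 residual degrees of freedom. Deposited TPM was summed as given. Levels used TMM-scaled CPM of at least 1. R 4.3.3, edgeR 4.0.16, DESeq2 1.42.0, Python 3.11.15 and SciPy 1.17.1 were used, and the fit was tested on simulated data.

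Members, lists and bounds were chosen with earlier results of these data known. Named genes were at most 2 up and 2 down per contrast, called in both cultivars or treatments with the largest mean change. For the difference they were the 2 of smallest p in each direction. The members of highest TPM and the C02 members with the most CPM left were also named. Others were picked after their values were seen. Alternatives were other libraries, scalings, filters, DESeq2, a replicate block and leaving out each library. Depth limits low genes: a count of 0 allows up to 3 counts, for counting error only. Pairs by unique length were replaced by gapped chains after the data were seen.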

Additional observations from a re-analysis of the deposited data

Results flagged for a closer look

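The submergence response differed between the cultivars in 14 members by a test of the difference itself (edgeR's quasi-likelihood test, Benjamini-Hochberg adjusted p). Described here are 4 of them, the 2 of smallest p in each direction. BnaA02g01320D had 0.185 and 0.0374 CPM in submerged Zhongshuang 9 against 13.9, 12.7 and 9.92 CPM in air, and 0.486 and 0.739 CPM in submerged Avatar against 3.26 and 2.23 CPM in air; the difference was -4.39 ± 0.63 (log2, adjusted p = 0.014). BnaA02g02560D had 48.1 and 52.2 CPM against 14.1, 13.3 and 15.9 CPM in Zhongshuang 9, and 65.5 and 64.2 CPM against 6.08 and 6.71 CPM in Avatar, a difference of -1.43 ± 0.18 (adjusted p = 0.0091). Both genes moved the same way in both cultivars, by unequal amounts.

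BnaA02g04680D had 31.1 and 36.5 CPM against 32.4, 35.0 and 34.1 CPM in Zhongshuang 9, and 17.3 and 17.7 CPM against 31.5 and 35.0 CPM in Avatar, a difference of 1.04 ± 0.17 (adjusted p = 0.021). BnaC02g02240D had 21.7 and 28.6 CPM against 21.4, 34.9 and 33.8 CPM in Zhongshuang 9, and 20.5 and 17.9 CPM against 79.7 and 73.9 CPM in Avatar, a difference of 1.86 ± 0.31 (adjusted p = 0.023). Both fell in Avatar and did not pass the threshold in Zhongshuang 9. With all 12 libraries none of the 4 passed. In the 7 libraries left without Avatar air 4 and Zhongshuang 9 air 4, the difference of BnaA02g04680D was 0.85 and missed the threshold. These 7 still hold Avatar submergence 3. By edgeR, BnaA02g04680D also missed the threshold with a replicate block (adjusted p = 0.053) and without any single library but Avatar air replicate 1. BnaC02g02240D missed it with the block (0.053), in the 7 libraries (0.063), and without Avatar submergence 3 or 4, Zhongshuang 9 air 3 or 4 or Zhongshuang 9 submergence 3 or 4 (0.055 to 0.115). BnaA02g02560D missed it without Zhongshuang 9 submergence 3 (0.056) or 4 (0.054), and BnaA02g01320D without Zhongshuang 9 submergence 4 (0.067).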

How the results depend on the processing

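Shares of all genes are not given for the alternatives of this section. With all 12 libraries, 81 members were called for submergence in Avatar, 145 in Zhongshuang 9 and 0 for the difference (53 at an unadjusted p under 0.05 by edgeR). Between cultivars, 66 were called in air and 76 under submergence. The difference, 14 members, gave 3 in the 7 libraries left without Avatar air 4 and Zhongshuang 9 air 4, which still hold Avatar submergence 3. It gave 34 by DESeq2 and 0 to 74 with single libraries left out. The other counts ranged over 212 to 304, 252 to 402, 136 to 226 and 129 to 276, the last lowest without Zhongshuang 9 submergence replicate 3 (129) or 4 (132). Libraries of the same replicate number, among the 9, had correlations of -0.0136 to 0.0707, which cannot show whether they were grown or handled together. With a replicate block the calls were 254, 359, 2, 164 and 230. Of 320 values for named genes, 293 kept direction and call, 27 lost the call, most of them for the difference between responses, and 0 reversed.

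The A share difference between treatments was -1.54 points by the median over genes, 2.51 without the 10 highest members, 3.76 without these and the inner stretch and 4.83 in all 12 libraries, and between cultivars 2.2 points without the inner stretch and -7.47 without the 10 highest members; the cause was not tested. Leaving out libraries gave 0.635 to 1.69 and -1.43 to -0.0252 points. Candidate pairs numbered 24 by unique lengths and 159 by gapped chains.

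The C02 level was 9.66% in Avatar air 3 and 7.41% in Zhongshuang 9 submergence 1 as summed TPM, 0.188% in the second against all its cultivar's unshifted libraries, and 59.4% in Avatar submergence 1 by TPM. The A02 level was 192% by TPM in Avatar air 3, 130% summed and 156% by TPM in Avatar submergence 1, and in Zhongshuang 9 submergence 1 195.6% against the cultivar, 229% summed, 205% by TPM and 196.4% at 5 CPM or more. The sum of both starts was 64.2% in Avatar air 3 against the cultivar, 85.5% so and 77.0% by TMM-scaled CPM in Avatar submergence 1, and 92.3%, 91.1% and, at 5 CPM or more, 80.1% in Zhongshuang 9 submergence 1. A median over genes gives no sum. Library totals moved the median of all genes to 0.40, 0.24 and -0.14 (log2) in the Avatar and Zhongshuang 9 responses and their difference.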
